A study of Mus musculus with 10 samples.

Results

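Cytosolic ribosomal protein genes encode the proteins of the ribosome that works in the cytoplasm. They were taken here by symbol: every gene named Rpl or Rps followed by a digit, with Rplp0, Rplp1, Rplp2 and Rpsa, leaving out the Rps6k kinases, Rps19bp1 and rows named as pseudogenes. The rule found 86 of the 21936 genes measured, and the deposited descriptions called all 86 a ribosomal protein. Of these, 46 are core proteins of the large subunit, 31 are core proteins of the small subunit and 9 are paralogs or retrogenes (Rpl10l, Rpl22l1, Rpl36al, Rpl39l, Rpl3l, Rpl7l1, Rps23rg1, Rps27l and Rps27rt).

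RNA was sequenced from spinal cord of wild-type mice at day 14 of a study of experimental autoimmune encephalomyelitis, in which immune cells attack the myelin of the mouse nervous system, a model of multiple sclerosis. The comparison asks what naringenin, a flavonoid of citrus fruit, changes in the diseased cord. Going by the sample titles, 5 samples were Nar (naringenin) and 5 were EAE. Their treatment field, however, reads naringenin in both groups. What EAE mice were given is therefore not known here, and the dose, age and strain are not given in the labels; mice without the disease were not analysed here. Whether each sample came from its own animal is not stated, and p-values then reflect only the variation among these 10 samples, part of which may be technical. In bulk tissue, fewer cells of a type and less RNA per cell cannot be told apart.

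A ribosome holds 1 copy of most of its proteins, and cells keep the output of the genes roughly matched. Most of the mRNAs begin with a run of pyrimidines (C and T in the DNA) at the cap, the terminal oligopyrimidine motif, through which the kinase mTORC1 and the RNA-binding protein Larp1 control their translation together. Several proteins also have duties outside the ribosome: Rpl5 and Rpl11 carry a signal of failed ribosome assembly to Mdm2 and p53, and Rps6 is the classic target of the S6 kinases.

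The annotated transcription starts of some members are shown because the pyrimidine run is the feature for which the family is known. RefSeq promoter sequences (GRCm38.p6) matched 66 of the 86 symbols. The longest unbroken run of C and T was sought on the gene's strand within 25 bases either side of the start. It reached 8 bases or more in 34 of the 66 members (51.5%), against 22.3% of all 27025 genes of that table. The first 5 windows below belong to the members that passed a threshold in at least 1 alternative fit, apart from Rpl37a. Rpl35a and Rpl37 passed only in a fit chosen after the data were seen. Rpl4 and Rpl12 had fold changes below 0. Each is 30 bases long with the run in capitals.
Rpl31 (chr1:39367824-39367853, + strand, run of 13): ctcgccacaCCTCTTCCTCCTCgcctcccc
Rpl34 (chr3:130730330-130730359, − strand, run of 20): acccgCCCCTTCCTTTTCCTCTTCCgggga
Rpl35 (chr2:39005115-39005144, − strand, run of 18): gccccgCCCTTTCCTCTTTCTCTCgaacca
Rpl35a (chr16:33056468-33056497, + strand, run of 13): cggggcttgCCTTCCTCTTTCCgccatctt
Rpl37 (chr15:5116588-5116617, + strand, run of 6): cgccggaagtagTTTCCTgggcggaagctt
Rpl4 (chr9:64173361-64173390, + strand, run of 14): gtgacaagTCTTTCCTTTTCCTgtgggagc
Rpl12 (chr2:32961701-32961730, + strand, run of 7): gagcaggatccgTCTTTTCggctttcggct
Rpl4 carried a run of 14 bases against 13 in Rpl31, and Rpl37 a run of only 6. A run describes the letters of the stretch searched and no more, and need not be the motif at the cap. Relative to the RefSeq start, the run began at −18 in Rpl31 and Rpl4, −17 in Rpl34 and −13 in Rpl37. It began at −7 in Rpl35, −5 in Rpl35a and 1 in Rpl12. The runs of Rpl31, Rpl4 and Rpl37 ended before that start. Over the tested core genes the median log2 fold change, Nar minus EAE, was 0.20 for the 30 with a run of 8 or more and 0.24 for the 26 with a shorter one.

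Sample totals were 14504726 to 15139706 counted reads in Nar and 16658798 to 18961501 in EAE. Members took 1.5, 1.36, 1.46, 1.77 and 1.45% of the reads in Nar 1 to 5 and 1.32, 1.58, 1.57, 1.15 and 1.24% in EAE 1 to 5. The group means were 1.51 ± 0.155% and 1.37 ± 0.192% (SD, n = 5 each), and the ranges overlapped. Counting error was far smaller than that spread: the 95% Wilson interval in Nar 4 ran from 1.77 to 1.78%. Large-subunit genes took 1.38 ± 0.0165 times the reads of small-subunit genes in Nar and 1.40 ± 0.0200 times in EAE, so the balance of the subunits was much steadier than the sum.

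Of the 86 members, 81 had enough reads to be tested. The other 5 were Rpl10l with 0 reads (3 reads of the 162967014 in all samples would be 0.0184 CPM, the count scaled to the sample's total), Rpl39l with 11, Rps23rg1 with 25, Rpl24 with 67 and Rpl36al with 75 reads over all 10 samples. No tested member changed at an adjusted p of 0.05 in edgeR's quasi-likelihood test (0 of 81, where 3.93% of the 14595 tested genes were called). At an unadjusted p below 0.05 there were 8 of 81 members (22.5% of all genes), every one of them higher in Nar (10.9% of all genes). No member had groups that did not overlap (0 of 81, against 5.79% of all genes). DESeq2 called 1 member (8.08% of all genes it tested), limma-voom 0 (6.04%) and limma-trend on log2 FPKM 0 (5.29% with 1 added and 5.36% with 0.1 added).

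The members lay to one side all the same. The log2 fold change was above 0 for 70 of 81 (86.4%), against 53.4% of all tested genes, with a median of 0.20 (quartiles 0.10 and 0.32) against 0.02. The range was −0.33 to 0.60. Large-subunit core genes had a median of 0.22 (38 of 45 above 0), small-subunit core genes 0.20 (28 of 31 above 0) and the 5 tested paralogs 0.19. The 81 members are not 81 separate observations: within each group they moved together from sample to sample.

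How far they moved together is seen in each sample's departure, the log2 CPM minus the gene's mean over the 10 samples. The median departure over the 81 members was 0.10, −0.05, 0.11, 0.36 and 0.05 in Nar 1 to 5 and −0.18, 0.14, 0.19, −0.44 and −0.25 in EAE 1 to 5. Nar 4 stood highest and EAE 4 lowest, while EAE 2 and EAE 3 lay above 4 of the 5 Nar samples. Nar 4 held the highest value of 64 of the 81 members and EAE 4 the lowest of 65. The correlation of 2 members' departures from their group means had a median of 0.847 over 3240 pairs and 10 samples, a description, since all members of a sample share its library and depth. The gene most in step with the others was Rpl27a (median 0.924), and among the least were Rpl7l1 (−0.178), Rpl3l (0.0852) and Rpl23a (0.424).

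**Figure D1:**
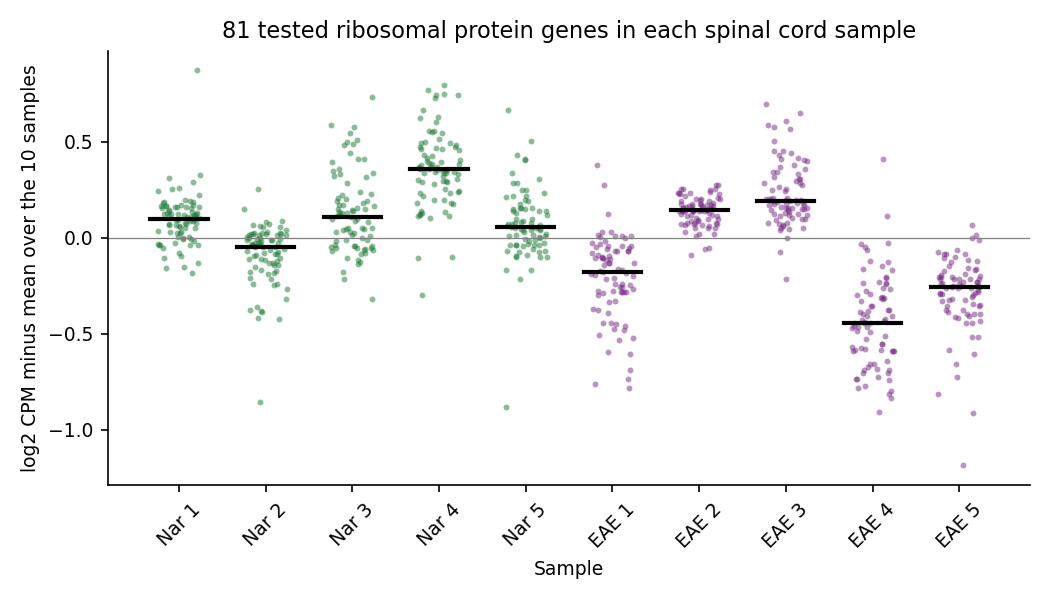
Log2 CPM of the 81 tested ribosomal protein genes minus each gene's mean over the 10 samples (vertical axis), by sample (horizontal axis). Each point is a gene and each black line the median; the medians run from −0.44 in EAE 4 to 0.36 in Nar 4, with EAE 2 and EAE 3 above 4 of the 5 Nar samples.

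Single samples carried weight in the comparison. Without EAE 3, the highest EAE sample for these genes, the median log2 fold change was 0.29 and 3 members rose (3.08% of all genes were called higher in that fit): Rpl31 by 0.51 (adjusted p = 0.0329), Rpl34 by 0.43 (0.0481) and Rpl35 by 0.83 (0.0404). Without Nar 4 it was 0.15 with 0 called, where 10.1% of all genes were called in either direction. Without EAE 4, the lowest sample, it was 0.127, the lowest of the 10 such fits, with 0 called (2.13% of all genes). Without Nar 4 and EAE 3 together, a choice made after seeing the data, 6 members rose (4.6% of all genes were called higher in that fit). They were Rpl31 (0.44), Rpl34 (0.36), Rpl35 (0.73), Rpl35a (0.52), Rpl37 (0.69) and Rpl37a (0.51), at adjusted p of 0.0173 to 0.0409.

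The share of mitochondrially encoded reads and the level of immune markers varied over the same samples. Mitochondrially encoded genes took 7.43, 6.70, 7.51, 6.86 and 6.69% of the reads in Nar 1 to 5 and 5.71, 5.92, 7.01, 4.62 and 5.19% in EAE 1 to 5. EAE 4 was lowest there too. With this share as a covariate the members' median log2 fold change was −0.09, in place of 0.20; the share itself was 7.04 ± 0.401% in Nar against 5.69 ± 0.893% in EAE (SD, n = 5 each), and its part in the result was not tested. The 10 monocyte and macrophage markers summed to 20.7, 27.6, 34.8, 134 and 19.1 CPM in Nar 1 to 5 and 234, 203, 281, 536 and 633 CPM in EAE 1 to 5. Nar 4 was the Nar sample nearest to EAE by these markers, and the sample with the highest ribosomal protein levels of all; the part of these cells in the result was not tested.

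Among proteins of the large subunit, Rpl31 (ENSMUSG00000073702, chr1:39367842-39371911), which sits near the exit of the peptide tunnel, had the smallest p. It measured 189, 164, 181, 222 and 188 CPM in Nar 1 to 5 and 125, 170.2, 181, 116 and 119 CPM in EAE 1 to 5. All Nar samples but Nar 2 were at or above the level of EAE 3, the highest EAE sample. The log2 fold change was 0.41 (SE 0.134, 95% interval 0.12 to 0.70, adjusted p = 0.107). DESeq2's Wald test put it at 0.41 with an adjusted p of 0.0322, the only member that test called (3.13% of all genes were called higher). With a larger fold change and a wider interval, Rpl37 (ENSMUSG00000041841, chr15:5116645-5119140), a small zinc-binding protein, measured 111, 89.5, 132, 167 and 132 CPM in Nar 1 to 5 and 59.6, 96, 134, 61.5 and 69.5 CPM in EAE 1 to 5. EAE 3 was as high as Nar 3 and Nar 5, and the log2 fold change was 0.59 (SE 0.253, 95% interval 0.02 to 1.15, adjusted p = 0.211).

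The other large-subunit genes below an unadjusted p of 0.05 were Rpl27, Rpl35a, Rpl14, Rpl34 and Rpl11, with log2 fold changes of 0.29 to 0.46 and adjusted p of 0.174 to 0.207. Rpl35a, one of the genes mutated in Diamond-Blackfan anemia, measured 111, 91.2, 121, 143 and 116 CPM in Nar 1 to 5 and 70.7, 101, 117, 60.5 and 74.2 CPM in EAE 1 to 5. EAE 2 and EAE 3 lay within the Nar range and the other EAE samples below it. Its log2 fold change was 0.46 (SE 0.183, 95% interval 0.05 to 0.86, adjusted p = 0.176). Rpl34 measured 90.3, 78.2, 91.7, 108 and 85.8 CPM in Nar 1 to 5 and 63.5, 83.7, 95.2, 55.5 and 65.4 CPM in EAE 1 to 5, and EAE 3 was above every Nar sample but Nar 4. Rpl27 was at 147 ± 20.9 CPM in Nar against 116 ± 23.4 in EAE (SD, n = 5 each) and Rpl14 at 232 ± 16.2 CPM in Nar against 189 ± 39.4 in EAE (SD, n = 5 each), and in both EAE 4 was the lowest sample of all.

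Rpl11 and Rpl5 enter the ribosome together, bound to the smallest ribosomal RNA, and together can bind Mdm2. Rpl11 measured 247, 221, 240.4, 279 and 233 CPM in Nar 1 to 5 and 188, 232, 252, 145 and 177 CPM in EAE 1 to 5, and its log2 fold change was 0.30 (adjusted p = 0.207). Rpl5 was at 289.5 ± 16.9 CPM in Nar against 287 ± 36.1 in EAE (SD, n = 5 each), a log2 fold change of 0.01 (SE 0.0806, 95% interval −0.16 to 0.19, adjusted p = 0.948). Whether the fold changes of these 2 genes differ was not tested.

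Rpl3 and Rpl4, the longest core members, lie at the peptidyl transferase centre and along the exit tunnel. Rpl4 (ENSMUSG00000032399, chr9:64173375-64178666) measured 589.8, 616, 584, 662 and 566 CPM in Nar 1 to 5 and 609, 669, 649, 558 and 573 CPM in EAE 1 to 5. The groups overlapped over nearly their whole ranges, and the log2 fold change was −0.02 (SE 0.0646, 95% interval −0.16 to 0.12, adjusted p = 0.891). Rpl3 was at 596 ± 30.3 CPM in Nar against 574 ± 56.7 in EAE (SD, n = 5 each), with a log2 fold change of 0.05 (SE 0.0691, 95% interval −0.09 to 0.20, adjusted p = 0.675). Rpl21 had a log2 fold change of 0.28 (adjusted p = 0.232). Rpl8, also at the peptidyl transferase centre, had a log2 fold change of 0.16 (adjusted p = 0.265), and Rpl36 had a log2 fold change of 0.48 (adjusted p = 0.258). The intervals of Rpl3 and Rpl4 lay between −0.16 and 0.20, so a difference of the size seen for Rpl31 was outside them.

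The stalk of the large subunit recruits the elongation factors; Rplp0 and Rpl12 form its base and Rplp1 and Rplp2 its flexible arms. Rplp1 had the highest FPKM of all members, 601 (the count scaled to the sample's total and to the deposited gene length, mean over 10 samples). It measured 353, 308, 327, 377 and 305 CPM in Nar 1 to 5 and 248, 336, 332, 177 and 247 CPM in EAE 1 to 5. The EAE samples spread more widely than the Nar samples, and the log2 fold change was 0.32 (SE 0.155, 95% interval −0.02 to 0.66, adjusted p = 0.252). Rplp2 had a log2 fold change of 0.23 (adjusted p = 0.515).

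At the base of the stalk the log2 fold changes were below 0, with intervals that included 0. Whether they differ from those of the arms was not tested. Rplp0 (ENSMUSG00000067274, chr5:115559467-115563727) measured 297, 290.3, 277, 396 and 279 CPM in Nar 1 to 5 and 317, 346, 348, 308 and 299 CPM in EAE 1 to 5. Nar 4 was far above the other 4 Nar samples, all of which were below all 5 EAE samples. The log2 fold change was −0.07 (SE 0.0936, 95% interval −0.27 to 0.13, adjusted p = 0.682). Rpl12 (ENSMUSG00000038900, chr2:32961559-32965345) measured 154, 161, 136, 169 and 140.2 CPM in Nar 1 to 5 and 172, 178, 164, 151 and 158 CPM in EAE 1 to 5, with Nar 4 again the highest of its group. It had the most negative log2 fold change of any core member, −0.11 (SE 0.0708, 95% interval −0.27 to 0.04, adjusted p = 0.352), and its groups overlapped.

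**Figure D2:**
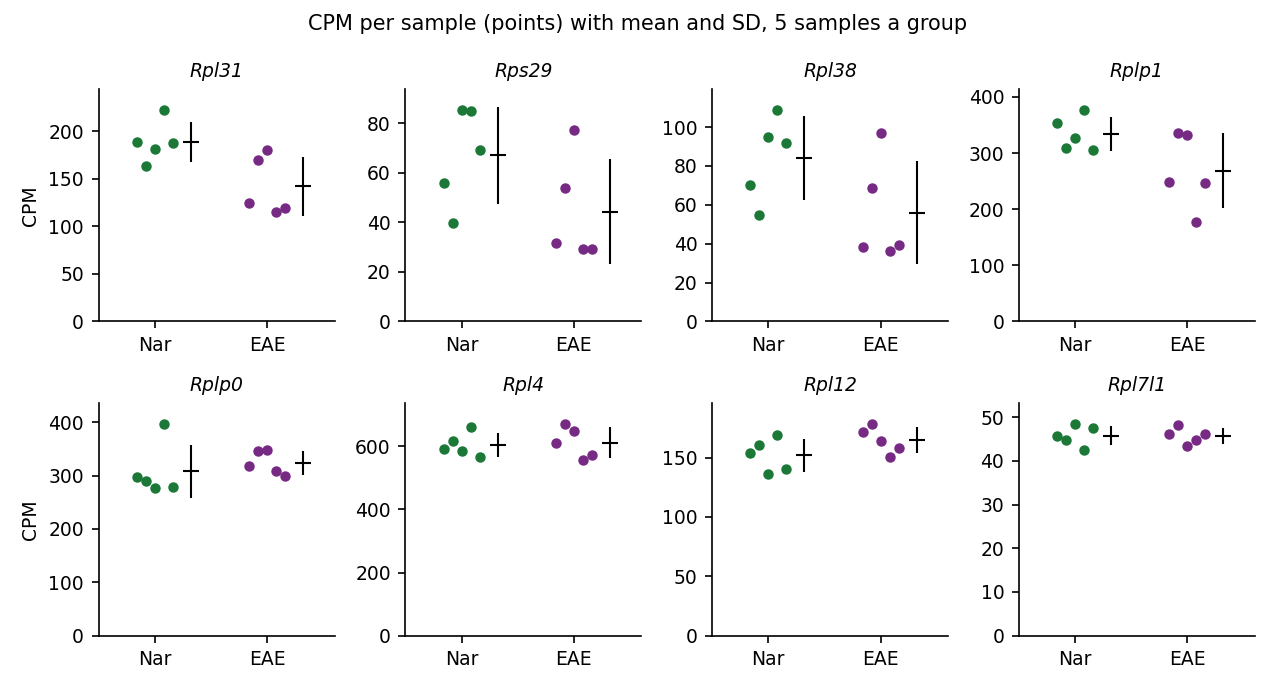
CPM (vertical axis, from 0) of 8 ribosomal protein genes in the 5 Nar and 5 EAE samples; points are samples, ordered 1 to 5 from left to right, and the cross bars give mean and SD. Rpl31, Rps29, Rpl38 and Rplp1 show wide EAE ranges reaching below Nar, Rplp0 shows Nar 4 alone at 396 CPM, and Rpl4, Rpl12 and Rpl7l1 overlap closely.

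Of the small-subunit genes, Rps7 (ENSMUSG00000061477, chr12:28630854-28635953) had the smallest p. It is needed for processing of the small ribosomal RNA and can also bind Mdm2. It measured 172, 159.9, 168, 207 and 159 CPM in Nar 1 to 5 and 146, 159, 171, 116 and 130.2 CPM in EAE 1 to 5. Nar 5 and Nar 2 lay at the level of EAE 2, and the log2 fold change was 0.26 (SE 0.104, 95% interval 0.04 to 0.49, adjusted p = 0.167). Rps19, the gene most often mutated in Diamond-Blackfan anemia, was at 99.5 ± 10.7 CPM in Nar against 80.7 ± 18.3 in EAE (SD, n = 5 each), with a log2 fold change of 0.30 (adjusted p = 0.229). Rps15, a protein near the decoding site with the second highest FPKM of the members (460.0), had a log2 fold change of 0.29 (adjusted p = 0.261).

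Rps6 (ENSMUSG00000028495, chr4:86854660-86857412), whose phosphorylation reports S6 kinase activity, measured 458, 430.1, 419.9, 512 and 415 CPM in Nar 1 to 5 and 397, 475, 495, 393 and 379.9 CPM in EAE 1 to 5. EAE 2 and EAE 3 were above every Nar sample but Nar 4, and the log2 fold change was 0.06 (SE 0.0855, 95% interval −0.12 to 0.25, adjusted p = 0.698). Phosphorylation is not measured by RNA. Rpsa, the laminin receptor of the small subunit, was at 509.7 ± 36.6 CPM in Nar against 469.8 ± 58.4 in EAE (SD, n = 5 each), with a log2 fold change of 0.12 (SE 0.0823, 95% interval −0.06 to 0.29, adjusted p = 0.415). Rps3a1 (399 FPKM) had a log2 fold change of 0.11 (adjusted p = 0.536) and the X-linked Rps4x (211 FPKM) −0.04 (adjusted p = 0.834).

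Rps27a is made as a fusion with ubiquitin, and its mRNA is one of the sources of that protein. It measured 196, 174, 189.7, 207 and 190.4 CPM in Nar 1 to 5 and 153, 194, 188, 107 and 139.8 CPM in EAE 1 to 5. The Nar samples lay close together, EAE 2 and EAE 3 among them and EAE 4 far below, and the log2 fold change was 0.29 (SE 0.137, 95% interval 0.00 to 0.59, adjusted p = 0.227). Fau, which joins a ubiquitin-like protein to a small-subunit protein, was at 176 ± 17.7 CPM in Nar against 160.5 ± 28.2 in EAE (SD, n = 5 each), with a log2 fold change of 0.13 (adjusted p = 0.496). Rack1, a signalling scaffold on the small subunit, was at 163 ± 24.5 CPM in Nar against 173 ± 12.7 in EAE (SD, n = 5 each), with a log2 fold change of −0.09 (adjusted p = 0.60). Fau and Rack1 are ribosomal proteins that the naming rule does not take.

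The largest fold changes belonged to short proteins. Rps29 (ENSMUSG00000034892, chr12:69157722-69159186), a zinc-binding protein of the small subunit with 168 coding bases, measured 55.8, 39.8, 85.2, 85 and 69.2 CPM in Nar 1 to 5 and 31.8, 54, 77.2, 29 and 29.1 CPM in EAE 1 to 5. Only Nar 3 and Nar 4 were above EAE 3, and Nar 2 sat between EAE 1 and EAE 2. The log2 fold change was the highest of any member, 0.60 (SE 0.333, 95% interval −0.15 to 1.35, adjusted p = 0.317). Rpl38, with 210 coding bases and known in mice for its part in translating Hox mRNAs, measured 70.0, 54.7, 94.9, 109 and 92 CPM in Nar 1 to 5 and 38.2, 68.9, 96.8, 36.3 and 39.1 CPM in EAE 1 to 5. EAE 3 was higher than 4 of the 5 Nar samples, and the log2 fold change was 0.59 (SE 0.318, 95% interval −0.13 to 1.31, adjusted p = 0.305).

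Rps21 (249 coding bases) measured 82.5, 58.7, 97.5, 106 and 92 CPM in Nar 1 to 5 and 48.3, 70.5, 94.3, 40.6 and 44 CPM in EAE 1 to 5, with a log2 fold change of 0.55 (SE 0.255, 95% interval −0.02 to 1.12, adjusted p = 0.236). Rpl41, a peptide of 75 coding bases, measured 218, 192, 265, 326 and 243 CPM in Nar 1 to 5 and 154, 212, 287, 129 and 159.6 CPM in EAE 1 to 5. Here only Nar 4 was above EAE 3. Its log2 fold change was 0.40 (adjusted p = 0.321). Rps28 had a log2 fold change of 0.43 (adjusted p = 0.432), Rpl39 0.36 (adjusted p = 0.543) and Rpl37a 0.40 (adjusted p = 0.273). Their intervals are wide, and so was their spread among samples: Rpl38 spanned 1.58 on the log2 scale over the 10 samples, Rpl4 0.26.

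Over the 76 tested core genes the order by coding length was regular. The median log2 fold change was 0.43 for the 9 genes under 300 coding bases, 0.28 for the 27 of 300 to 450, 0.15 for the 18 of 450 to 600 and 0.08 for the 22 of 600 and over. Across these genes, the log2 fold change had a Pearson r of −0.703 and a Spearman rho of −0.743 with log2 coding length. This is a description: the genes share their samples and libraries and are not independent replicates. With log2 FPKM the r was −0.157.

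**Figure D3:**
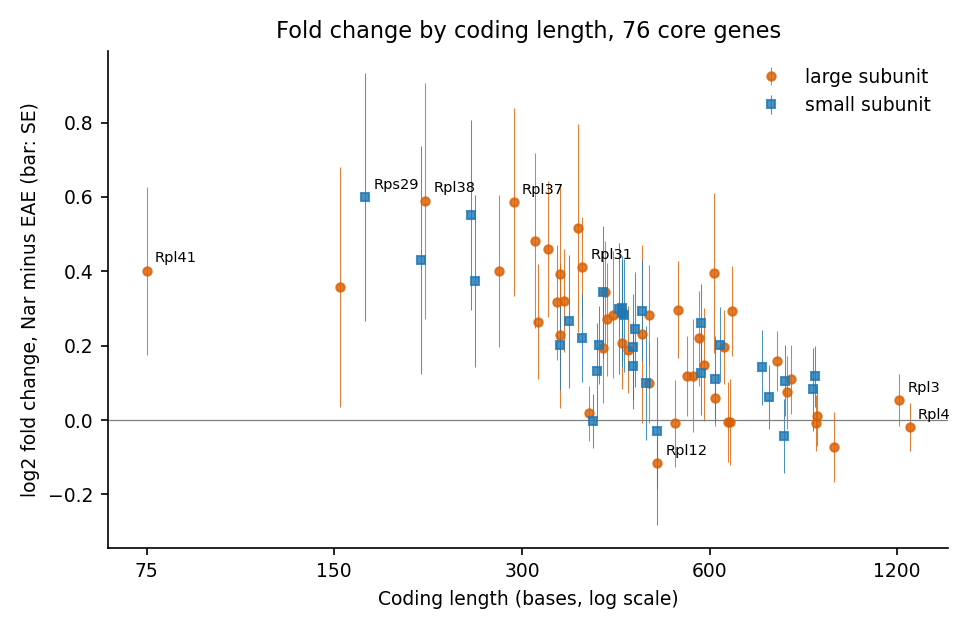
Log2 fold change, Nar minus EAE, with its standard error (vertical axis) against coding length in bases (horizontal axis, log scale) for the 76 tested core genes, by subunit. The median goes from 0.43 under 300 bases to 0.08 at 600 bases and over.

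The same order was seen without Nar 4 (medians 0.33, 0.19, 0.08 and 0.02 from the shortest class to the longest) and without EAE 3 (0.70, 0.40, 0.24 and 0.12). With the mitochondrial read share as a covariate they had no such order: the medians were −0.10, −0.08, −0.10 and −0.10, and the r with coding length was 0.00786.

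The samples differed among themselves along the same order. Core members under 300 coding bases had median departures of 0.12, −0.24, 0.44, 0.73 and 0.25 in Nar 1 to 5 and −0.59, 0.07, 0.45, −0.71 and −0.52 in EAE 1 to 5. The EAE group alone spanned more than the distance between the groups, from EAE 4 to EAE 3. Members of 600 coding bases and over had median departures of 0.06, −0.01, −0.05, 0.25 and −0.03 in Nar 1 to 5 and −0.06, 0.16, 0.13, −0.25 and −0.18 in EAE 1 to 5, a narrower spread with the same sample at either end.

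Other genes of short coding length showed a smaller tilt of the same sign. Outside the family, the median log2 fold change was 0.20 for 286 tested genes under 300 coding bases, 0.15 for 634 of 300 to 450, 0.09 for 829 of 450 to 600 and 0.00312 for 12732 of 600 and over. Over all tested genes, 230 were called higher in Nar and 344 lower. Of the 286 outside the family under 300 coding bases, 11 were called (3.85%, near the share over all genes), 10 higher and 1 lower. Their median departures were 0.10, 0.03, 0.11, 0.24 and 0.09 in Nar 1 to 5 and −0.16, 0.09, 0.15, −0.32 and −0.18 in EAE 1 to 5, with Nar 4 highest and EAE 4 lowest as for the ribosomal protein genes. Short mRNAs outside the family thus had the same sample at either end as the family. The mitochondrial read share was lowest in EAE 4 too, but Nar 4 (6.86%) lay below Nar 1 (7.43%), Nar 3 (7.51%) and EAE 3 (7.01%). The part of short mRNAs and of that share in the result was not tested.

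**Figure D4:**
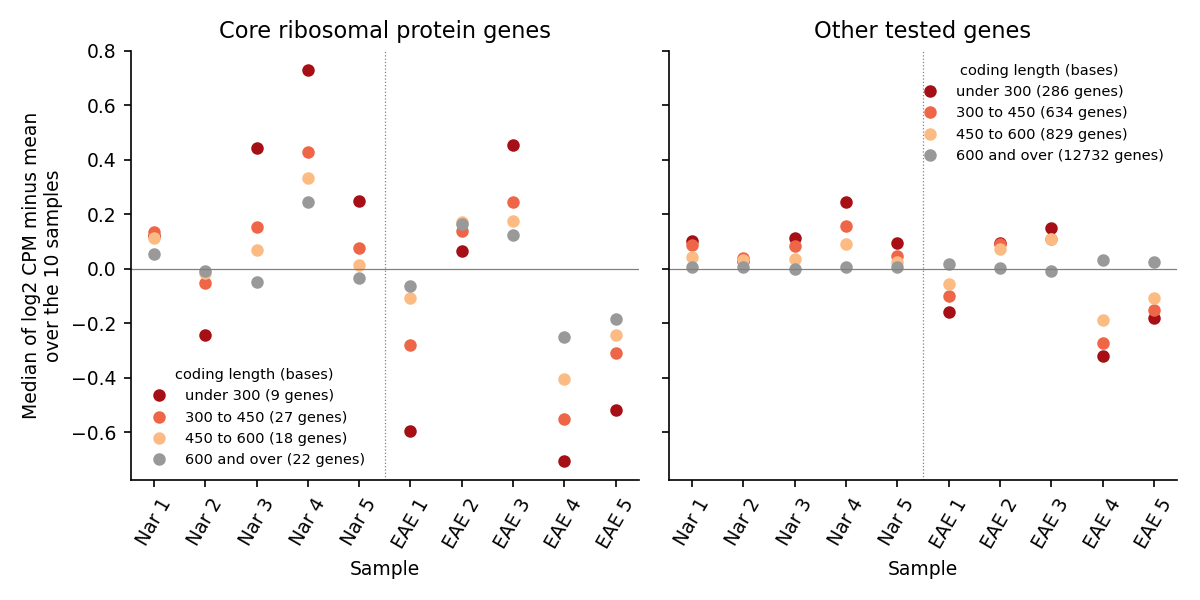
Median of log2 CPM minus each gene's mean over the 10 samples (vertical axis), by sample (horizontal axis) and coding length class (colour), for core ribosomal protein genes (left) and all other tested genes (right). The shortest core genes run from −0.71 in EAE 4 to 0.73 in Nar 4, and the shortest other genes from −0.32 to 0.24 in the same samples.

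Most paralogs had low levels in the cord. Rps27 is a zinc-binding small-subunit protein with a retrogene, Rps27rt, and a paralog, Rps27l, that is known as a target of p53. Their coding sequences (GENCODE M21) are shown because they decide which reads can be told apart. Rps27 and Rps27rt are identical over all 252 bases. Rps27l differs from them at 60 bases, set in capitals, and is 76.2% identical.
Rps27 and Rps27rt: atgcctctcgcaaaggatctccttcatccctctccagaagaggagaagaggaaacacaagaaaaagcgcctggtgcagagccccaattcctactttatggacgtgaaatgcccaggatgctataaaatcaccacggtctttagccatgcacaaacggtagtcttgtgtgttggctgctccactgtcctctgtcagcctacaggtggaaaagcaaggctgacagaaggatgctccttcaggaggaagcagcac
Rps27l: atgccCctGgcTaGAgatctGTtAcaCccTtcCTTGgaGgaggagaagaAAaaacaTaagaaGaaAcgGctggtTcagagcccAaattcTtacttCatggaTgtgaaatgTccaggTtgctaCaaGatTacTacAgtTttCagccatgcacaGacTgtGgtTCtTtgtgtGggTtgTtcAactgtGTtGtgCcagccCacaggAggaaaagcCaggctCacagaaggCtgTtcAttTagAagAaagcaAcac
Coding reads of Rps27 and Rps27rt therefore cannot be assigned by sequence, and the split between those 2 rows is uncertain. Rps27 was at 68.1 ± 14.9 CPM in Nar against 52.5 ± 17.6 in EAE (SD, n = 5 each) and Rps27rt at 22.4 ± 6.49 CPM in Nar against 16.1 ± 6.0 in EAE (SD, n = 5 each), with log2 fold changes of 0.37 (adjusted p = 0.366) and 0.47 (adjusted p = 0.311). Rps27l measured 11.4, 11.1, 16.6, 17.8 and 13.7 CPM in Nar 1 to 5 and 11.4, 15.2, 16, 9.31 and 9.79 CPM in EAE 1 to 5, with a log2 fold change of 0.19 (adjusted p = 0.551).

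The ratio of a paralog to its partner was compared between groups for the 4 pairs in which both genes were tested, on a log2 scale with 0.5 added to each count. None of the 4 differed at an adjusted p of 0.05; the smallest p that 5 samples against 5 allow is 0.0079. Rps27l to Rps27 was −2.27 ± 0.141 in Nar and −2.06 ± 0.171 in EAE (SD over 5 samples), a difference of −0.20 with an exact permutation p of 0.0873 (adjusted 0.27). Rpl22l1 to Rpl22, a pair of which Rpl22 is known to repress the other, was −3.62 ± 0.36 in Nar and −3.96 ± 0.308 in EAE (SD over 5 samples), a difference of 0.35 with an exact permutation p of 0.135 (adjusted 0.27). Rpl3l to Rpl3 was −10.1 ± 0.82 in Nar and −9.57 ± 0.323 in EAE (SD over 5 samples), a difference of −0.55 with an exact permutation p of 0.206 (adjusted 0.275). Rpl7l1 to Rpl7 was −2.90 ± 0.23 in Nar and −2.79 ± 0.164 in EAE (SD over 5 samples), a difference of −0.11 with an exact permutation p of 0.468 (adjusted 0.468).

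Rpl7l1 (ENSMUSG00000063888, chr17:46773907-46782672), a relative of Rpl7, was the steadiest member. It measured 45.6, 44.8, 48.3, 42.6 and 47.5 CPM in Nar 1 to 5 and 46, 48.3, 43.4, 44.7 and 46.1 CPM in EAE 1 to 5. All 10 values lay between 42.6 and 48.3 CPM, and the log2 fold change was 0.00 (SE 0.0596, 95% interval −0.13 to 0.13, adjusted p = 0.989). Rpl3l, a striated-muscle form of Rpl3, measured 1.22, 0.282, 0.668, 0.472 and 0.274 CPM in Nar 1 to 5 and 0.828, 0.636, 0.855, 0.851 and 0.512 CPM in EAE 1 to 5. It was the lowest tested member (0.402 FPKM) and had the most negative log2 fold change of all, −0.33 (SE 0.409, 95% interval −1.21 to 0.55, adjusted p = 0.666), on few reads. The 8 skeletal muscle markers summed to at most 5.47 CPM in any sample.

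Levels differed widely among core members, and the 6 lowest had exons that another gene overlaps. By FPKM the highest after Rplp1 (601) were Rps15 (460.0), Rps3a1 (399), Rpl4 (302), Rps6 (275), Rpl8 (274), Rpl36 (242) and Rps4x (211). This order depends on the deposited length, which for many members exceeds that of the principal annotated transcript. Rpl26 had 1444 bases against 526 and Rpl41 1168 against 437, while Rps3a1 had 977 by both. Levels per transcript length were not ranked. The lowest by FPKM were Rpl24 (0.413), Rps10 (0.938), Rpl13a (1.85), Rpl35 (4.59), Rpl30 (8.03) and Rpl23a (9.57), all of them standard parts of the ribosome. In each of these 6, another annotated gene covers at least 20% of the exon bases. Of the 11 core genes with such an overlap, 6 were under 15 FPKM and the median was 9.57 FPKM. Of the 66 without it, 0 were under 15 FPKM, the lowest was at 19.2 FPKM and the median was 92.4 FPKM. The cuts of 20% and 15 FPKM were not planned, so the split only describes these genes.

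The counter used by the authors is not given in the sources used here, and whether it dropped reads that fall on 2 genes was not tested. The levels of those 6 genes are therefore uncertain. Not every gene with such an overlap was low: Rpl31 and Rpl32, with overlaps of that size, stood at 99.2 and 128 FPKM. Rpl35, called in the fits without EAE 3, is one of the uncertain genes. It measured 6.69, 4.44, 7.68, 8.57 and 6.31 CPM in Nar 1 to 5 and 3.91, 5.04, 8.5, 3.35 and 2.79 CPM in EAE 1 to 5, with a log2 fold change of 0.52 (SE 0.279, 95% interval −0.09 to 1.12, adjusted p = 0.292). Rps10 had a log2 fold change of −0.03 (adjusted p = 0.957), Rpl13a 0.39 (adjusted p = 0.293) and Rpl30 0.39 (adjusted p = 0.348).

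**Figure D5:**
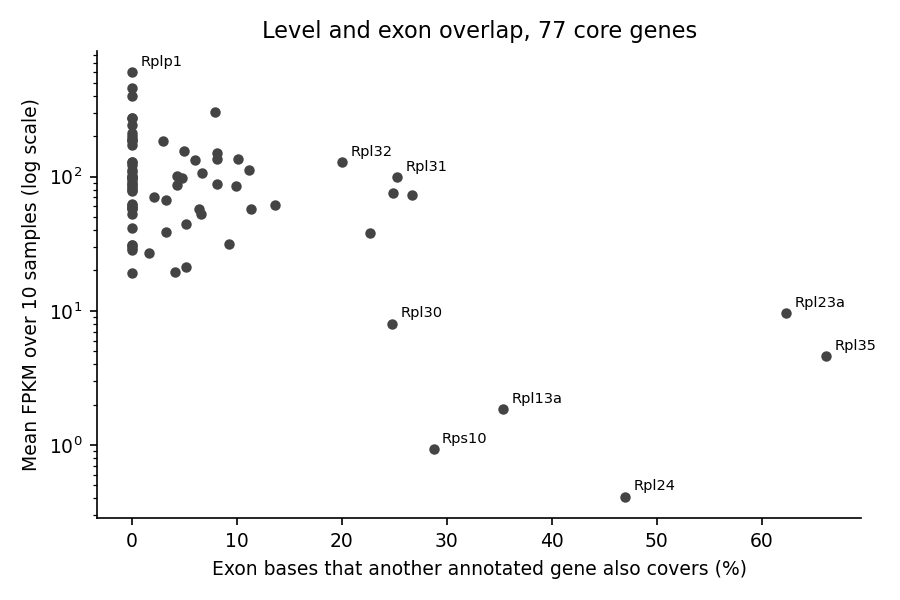
Mean FPKM over the 10 samples (vertical axis, log scale) against the percentage of a gene's exon bases that another annotated gene covers on either strand (horizontal axis), for the 77 core genes. The 6 genes under 15 FPKM all have an overlap of 20% or more.

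The family is also copied throughout the genome as pseudogenes. Of each member's coding sequence, a median of 84.3% of the windows of 75 bases occurred unchanged in a transcript of another gene (GENCODE M21). All windows were shared in 27 of the 86 members, and none in, among others, Rps3, Rpl3l and Rpl39l. The median member shared windows with 5 pseudogenes, and Rpl7a with 64. Reads from such windows could be split or dropped, so absolute levels are uncertain for most members. Across the 76 tested core genes the share of copied windows had an r of 0.142 with the log2 fold change.

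Genes that act with the ribosomal proteins had medians close to that of all genes. Over all tested genes, 3.93% were called and 22.5% had an unadjusted p below 0.05 in edgeR's test. Of 22 further genes whose mRNAs are known for the pyrimidine motif or that partner the ribosome in elongation, 0 changed (5 at an unadjusted p below 0.05; 2 fell without Nar 4 and 1 without EAE 3) and the median log2 fold change was 0.02, as over all genes. The poly(A)-binding protein gene Pabpc1, one of them, measured 154, 156, 149, 226 and 151 CPM in Nar 1 to 5 and 217, 219.5, 199, 244 and 208 CPM in EAE 1 to 5. Nar 4 lay among the EAE samples and the other 4 Nar samples below all of EAE. The log2 fold change was −0.38 (adjusted p = 0.0727), and 0.000152 was the adjusted p without Nar 4. DESeq2's Wald test gave Pabpc1 an adjusted p of 0.0158. None of the 28 translation initiation factors (median 0.01), 40 ribosome biogenesis genes (median −0.04) or 14 genes of RNA polymerase I, which transcribes ribosomal RNA (median −0.01), was called; at an unadjusted p below 0.05 there were 3, 6 and 1. Leaving out EAE 3 gave 3 biogenesis genes higher in Nar, and leaving out Nar 2 gave 1 initiation factor lower. Median coding lengths in these 4 lists were 1069.5, 1087.5, 1746 and 1330.5 bases, in the order given. Genes outside the family of 600 coding bases and over had a median log2 fold change of 0.00312. The part of coding length in the contrast with the family was not tested.

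Among 32 genes of mTORC1 and S6 kinase control, 1 fell (3.1%, near the 3.93% called over all tested genes) and 0 rose. The median was 0.03. With 1 sample left out 0 to 3 fell (3 without Nar 4) and 0 or 1 rose (1 without Nar 2 or EAE 3). The gene called over all 10 samples was Sesn2, a stress-induced inhibitor of mTORC1. It is also the 1 of 13 p53 and ribosomal stress genes that fell (7.69%). It measured 16.5, 17.2, 17.5, 15.4 and 18.7 CPM in Nar 1 to 5 and 25, 20.4, 21.1, 21.1 and 21.7 CPM in EAE 1 to 5. The groups did not overlap, and the log2 fold change was −0.36 (adjusted p = 0.0344). The call was lost without Nar 1, 3 or 5 or EAE 1, 4 or 5 (adjusted p = 0.0513 to 0.0826), and with the mitochondrial read share as a covariate (0.170). Larp1, the repressor of the pyrimidine-motif mRNAs, was at 131 ± 6.66 CPM in Nar against 149 ± 6.58 in EAE (SD, n = 5 each), with a log2 fold change of −0.19 (adjusted p = 0.0718). Its groups did not overlap (as in 5.79% of all tested genes). DESeq2's Wald test gave an adjusted p of 0.0183 (8.08% of all genes it tested were called), and the edgeR fit with the mitochondrial covariate 0.244.

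Genes of the mitochondrial ribosome and the respiratory chain, like the cytosolic family, had medians above that of all genes. Median coding lengths were 588 bases for the mitochondrial ribosome and 390 for the nuclear respiratory chain genes. For the mitochondrially encoded genes the median was 869. Of 77 tested mitochondrial ribosomal proteins, 0 were called and the median log2 fold change was 0.18 (18 at an unadjusted p below 0.05; 9 rose without EAE 3). Of 81 tested nuclear genes of the respiratory chain, 0 were called and the median was 0.36 (30 at an unadjusted p below 0.05; 27 rose without EAE 3). The respiratory chain genes' median departures were 0.15, 0.08, 0.24, 0.30 and 0.21 in Nar 1 to 5 and −0.33, 0.10, 0.28, −0.73 and −0.35 in EAE 1 to 5, with EAE 4 lowest and EAE 3 among the highest as for the ribosomal proteins. Of 12 tested mitochondrially encoded genes, 2 rose (mt-Nd4l and mt-Nd5, 16.7% against 3.93% called over all tested genes). The median was 0.37 (8 rose without EAE 3). The call of mt-Nd4l had an edgeR adjusted p of 0.0334. It was lost without any 1 of Nar 1, 2, 3 or 5 or EAE 1, 2 or 5. Both calls were lost with the mitochondrial read share as a covariate. That share counts the reads of these genes themselves, so that fit cannot check their calls.

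Cell type markers checked the tissue and what else moved with the groups. The share called over all tested genes, 3.93%, stands beside the marker counts in this and the next paragraph. The 12 neuron markers summed to 9206, 10834, 9835, 9101 and 9301 CPM in Nar 1 to 5 and 9497, 10784, 11700.4, 8638 and 8563 CPM in EAE 1 to 5, 0 of 12 were called and their median log2 fold change was 0.03. The 10 oligodendrocyte markers, genes of the myelin-forming cells, summed to 38892, 36532, 36688, 32200.1 and 36876 CPM in Nar 1 to 5 and 30382, 33573, 33417, 24936 and 24414 CPM in EAE 1 to 5. All Nar samples but Nar 4 were above all EAE samples, and 4 of the 10 rose (1 to 5 with 1 sample left out, 1 without Nar 1 or Nar 5). The 10 microglia markers summed to 443, 493, 528, 1239 and 498 CPM in Nar 1 to 5 and 1103, 1056, 1045, 1246 and 1280.4 CPM in EAE 1 to 5, with 0 of 10 called (9 fell without Nar 4).

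Of 10 monocyte and macrophage markers 2 fell (0 to 3 with 1 sample left out, 0 without Nar 1 and 3 without Nar 4). The 11 of 12 T and B cell markers in the table summed to 3.25, 1.76, 4.01, 11.2 and 2.68 CPM in Nar 1 to 5 and 10.7, 8.01, 7.76, 18 and 12.7 CPM in EAE 1 to 5; 5 were tested and 1 fell (4 without Nar 4, 0 without any 1 of the other samples except EAE 3). Of 9 astrocyte markers 3 fell (0 to 4, 0 without Nar 1, 3 or 5) and of 8 tested fibroblast and meningeal markers 5 fell (4 or 5). None of the 6 motor neuron, 8 endothelial, 3 tested skeletal muscle or 5 erythroid markers was called (2 motor neuron markers fell without Nar 2 and 1 endothelial marker rose without Nar 4), and no marker in the table was at 0 reads over all samples. Nar 4 was the highest Nar sample for the immune, astrocyte and fibroblast markers and the lowest for oligodendrocyte markers. Cells of all these kinds contain ribosomes, and the part of the cell makeup in the levels of the ribosomal protein genes was not tested.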

How the data were processed

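Polyadenylated RNA of 10 spinal cord samples was made into random-primed libraries and sequenced on an Illumina NovaSeq, per the labels' protocols, which name no strand-marking step. The submitters' processing notes list cutadapt and the aligner HISAT2 2.0.5. Per the file headers, the table the authors deposited has a raw count and an FPKM column for each sample over 21936 genes. Its counter, annotation and filters were, in the sources used here, not given. The deposited FPKM equals the count per kilobase of the deposited length and per M reads of the column (100% of 153986 values above 0.1 within 1%). That length equals the summed exon bases of GENCODE M21 (GRCm38) for all 86 members, which understates FPKM where short transcripts dominate.

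Samples were grouped by title. The whole count table was fitted in edgeR 4.0.16 under R 4.3.3 (filterByExpr, TMM, robust quasi-likelihood fit), Nar minus EAE, two-sided, with Benjamini-Hochberg adjustment over the 14595 genes tested and a threshold of 0.05. SE is the log2 fold change over the square root of F; intervals are 95%. CPM uses TMM-scaled totals, and log2 CPM a prior count of 2. Wilson intervals cover counting error only. Paralog ratios had a two-sided exact permutation test, adjusted over the 4 pairs. The fit was tested on simulated data. Of 100 genes changed by 0.5 on the log2 scale it called 57, and of 100 changed by 1 it called 91. There were 4 false calls among 152. Changes as small as the members' median of 0.20 were not simulated. Coding lengths are those of the principal GENCODE M21 transcript without its stop codon.

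Named members are the 12 of smallest p, the 8 highest and 6 lowest by FPKM, the 4 extreme fold changes, the paralog pairs, 6 fixed members with Rack1 and Fau, and the 3 of smallest p of each list. Some genes that this rule selects are not reported here. Rpl5, Rpl41, Rpl39, Rps28, Rpl37a, Rpl24, Rpl23a, Rpl32, Rpl27a, Rpl7a, Rps3 and Rps27rt were named after their values were seen. The members and lists were chosen with earlier results of these data known. The cuts of 20% exon overlap and 15 FPKM were not part of the plan. Alternatives were other scalings, filters, tools (DESeq2 1.42.0, limma 3.58.1), pseudocounts, a replicate block, a mitochondrial covariate, an adjusted p of 0.10 and leaving out each sample; leaving out Nar 4 and EAE 3 together, the coding length classes and the median under each setting were added after seeing the data.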

Additional observations from a re-analysis of the deposited data

Results flagged for a closer look

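The log2 CPM of Rplp0 in Nar 4 was 8.63, and the other 4 Nar samples lay between 8.12 and 8.21. The gap to the nearest sample was 0.810 of the group's range, above Dixon's critical value of 0.71 for 5 samples. It was the 1 such sample in 80 groups of Nar or EAE values checked, and chance marks about 1 group in 20. Rows named as ribosomal protein pseudogenes, which are not members, held 7082 reads over all samples, 0.303% of the reads on the members; 4 of the 7 rows had reads and 1 was among the genes tested.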

How the results depend on the processing

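The number of ribosomal protein genes called was 0 under every setting but DESeq2's Wald test (1), the fit without Nar 4 and EAE 3 (6) and the single-sample omissions, which ranged from 0 to 3 (3 without EAE 3). Their median log2 fold change stayed above 0 (0.127 to 0.285 with 1 sample left out) except with the mitochondrial share as a covariate, where it was −0.0940. The read share difference of 0.137 percentage points was 0.0707 to 0.188 with 1 sample left out.

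Over all genes, 574 were called (230 higher, 344 lower). The count was 197 with the mitochondrial covariate (129 higher, 68 lower), 1283 with DESeq2, 881 with limma-voom, 1266 at an adjusted p of 0.10, 1959 without Nar 4 and EAE 3, and 161 to 1486 with 1 sample left out (161 without Nar 1, 166 without Nar 5, 205 without Nar 3, 276, 311 and 325 without EAE 1, 4 and 5, 916 without EAE 3 and 1486 without Nar 4). The split was 187 higher and 419 lower with upper quartile factors.

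Replicate numbers did not pair the samples (correlations of same-numbered samples −0.227 to 0.161; 1 of 10 samples correlated best with its own number). The replicate block called 0 members and 636 genes, and under it the calls of Sesn2 (adjusted p = 0.0589) and mt-Nd4l (0.0598) were lost. Among 68 results of named genes in 21 settings, the threshold was passed only in the alternative 61 times and lost 18 times, and 0 called values changed sign; uncalled signs changed in 31 of 68 with the mitochondrial covariate. The cause was not tested. Read numbers were smallest for Rpl3l among the tested members and for the 5 untested ones.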
